A study of Mus musculus with 6 samples.

Results

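The glutamate, GABA and glycine receptor subunit genes were examined in the cortex of Pen-2 cKO mice and their controls at postnatal day 8. The members were genes whose symbols name an AMPA (*Gria*), kainate (*Grik*), NMDA (*Grin1*, *Grin2*, *Grin3*) or metabotropic glutamate receptor subunit (*Grm*), an α, β, γ, δ, ε or ρ subunit of the GABA-A receptor (*Gabr*), a GABA-B subunit (*Gabbr*) or a glycine receptor subunit (*Glra*, *Glrb*). The 43 described here, of 34745 genes measured, include 34 that reached 0.5 FPKM in at least 3 of the 6 libraries and were tested. FPKM counts fragments relative to transcript length and to library depth, so levels can be set side by side within limits. It does not correct for differences in RNA composition between libraries, and results with other scalings are given below. The lengths used for most genes are unknown, which limits comparison between genes.

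Pen-2 cKO mice carried Pen-2 F/F, floxed alleles of the gene, together with hGFAP-Cre (3 samples). Controls carried Pen-2 F/F too, and their labels name no Cre (3 samples). Pen-2, encoded by *Psenen*, is a subunit of γ-secretase, the protease that cleaves Notch receptors and many other membrane proteins. The human GFAP promoter that drives this Cre is active in cortical radial glia, which give rise to neurons and glia, so recombination is not expected to be limited to astrocytes. An effect of carrying Cre and one of losing Pen-2 cannot be told apart. No label states that each sample came from its own animal, so the p-values refer to the spread among these 6 samples, which may be technical.

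AMPA, kainate and NMDA receptors are tetrameric cation channels opened by glutamate and carry fast excitation, while metabotropic glutamate receptors act through G proteins. GABA-A and glycine receptors are pentameric chloride channels, and the GABA-B receptor is a G-protein-coupled dimer of both its subunits. In the rodent cortex the first postnatal weeks are a time of subunit exchange: GluN2A joins GluN2B in NMDA receptors, and embryonic glycine receptors built with α2 give way.

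The libraries differed in depth and in cell type markers. The smallest steps between FPKM values implied about 25120000 to 26810000 fragments in the Pen-2 cKO libraries and 20250000 to 24870000 fragments in the control libraries. *Psenen* was 3.56, 3.90 and 4.03 FPKM in Pen-2 cKO and 6.35, 6.86 and 7.32 FPKM in control libraries. Cortical excitatory markers such as *Slc17a7* (176 to 227 FPKM in Pen-2 cKO and 181 to 250 FPKM in control libraries) were present in every library. The summed FPKM of 9 astrocyte markers was 55.2 to 105.5 in Pen-2 cKO and 188 to 254 in control libraries, with 6 of them called lower. That of 12 pan-neuronal markers was 2142 to 2260 in Pen-2 cKO and 2485 to 2562 in control libraries. The list's median log2 difference was -0.09. Only *Tubb3* of the 12 was called lower, at a mean of 1141 FPKM in Pen-2 cKO and 1404 FPKM in control libraries. In 4 of the 12, *Tubb3*, *Nefm*, *Stmn2* and *Rbfox3*, every Pen-2 cKO library lay below every control library. Their log2 differences were -0.30, -0.50, -0.22 and -0.22. The sum of 10 oligodendrocyte lineage markers, 8 of them called higher, was 309 to 397 in Pen-2 cKO and 111 to 146 in control libraries. That of 9 inhibitory neuron markers was 852 to 892 in Pen-2 cKO and 540 to 620 in control libraries, of which *Sst* alone gave a mean of 617.4 FPKM in Pen-2 cKO and 402.2 FPKM in control libraries. Of these 9, *Sst* and *Gad1* were called higher, and *Dlx1* and *Dlx2* had log2 differences of -0.03 and -0.19. The sum of 8 striatum markers, 2 of them called higher, was 159 to 232 in Pen-2 cKO and 82.8 to 151 in control libraries, and that of 5 meninges markers, 3 of them called higher, was 43.2 to 82.4 in Pen-2 cKO and 20.4 to 23.9 in control libraries. The sums of 6 vessel markers, 1 of them called higher, were 87.9 to 89.7 in Pen-2 cKO and 69.0 to 72.7 in control libraries, and those of 5 microglia markers, none of them called, were 47.4 to 64.0 in Pen-2 cKO and 37.1 to 45.8 in control libraries. In bulk tissue fewer cells of a type and less RNA per cell cannot be told apart. Pen-2 cKO replicate 3 stood apart in choroid plexus RNA, with 884.8 summed FPKM of 5 markers against 183.6 and 327.4 in the other Pen-2 cKO libraries and 34.8 to 180.9 in control libraries.

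Few receptor subunit genes passed the test between Pen-2 cKO and control cortex. Of the 34 tested members, *Gria4* rose and *Grin2c* fell, and the others did not pass an adjusted p of 0.05 (limma on log2(FPKM + 0.1), Benjamini-Hochberg over 14147 tested genes). That is 5.9% of the members, against 5.53% of all tested genes, with 3.67% of all tested genes called higher and 1.87% called lower. The members' median log2 difference was 0.05, beside 0.07 over all tested genes, and their median absolute difference was 0.163, beside 0.147 over all tested genes. In 11 members (32.4%) the libraries of the groups did not overlap and the unadjusted p was under 0.05, which was the case in 21.2% of all tested genes. Of these 11, 8 were higher in Pen-2 cKO cortex and 3 were lower, or 23.5% and 8.8% of the members, against 15.4% and 5.85% of all tested genes.

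**Figure D1:**
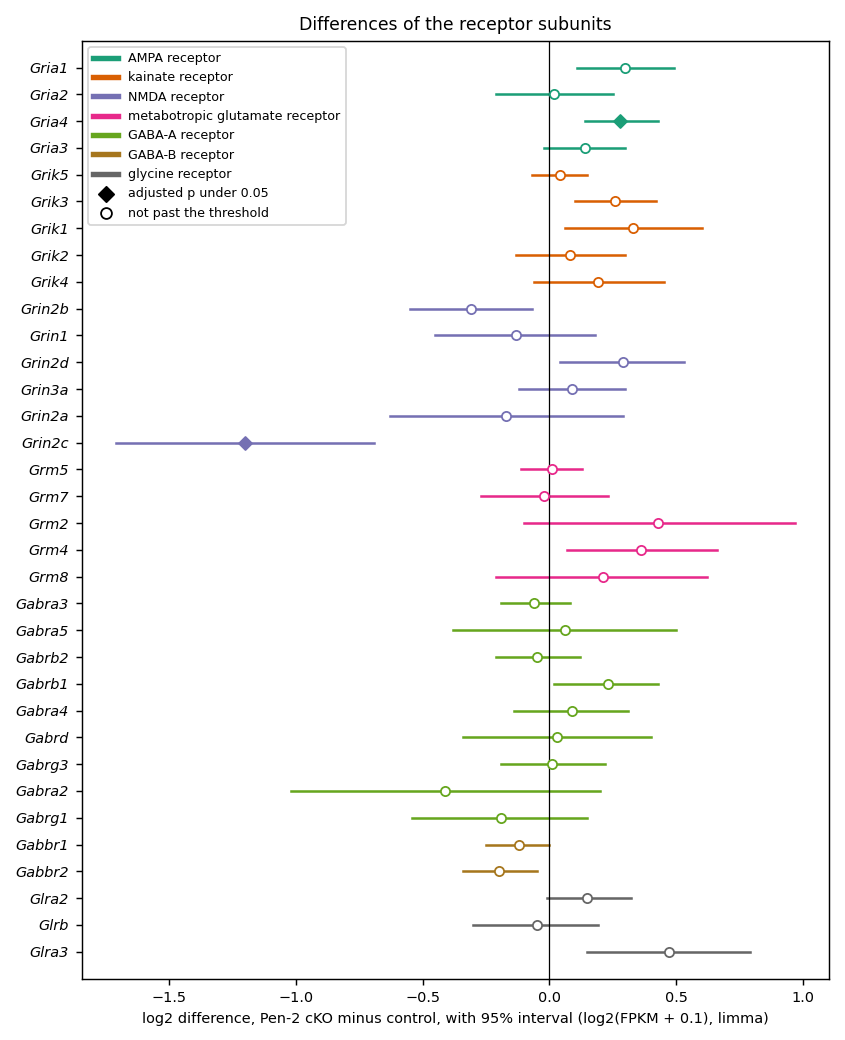
Log2 difference (Pen-2 cKO minus control, horizontal axis) of the 34 tested receptor subunits, ordered by receptor class and level, with limma's 95% intervals. Filled diamonds mark the 2 members past an adjusted p of 0.05, *Grin2c* at -1.20 and *Gria4* at 0.28, and every other point lies between -0.41 and 0.47.

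The levels covered a wide range. *Gabbr1* and *Gabbr2* stood highest, with means over the 6 libraries of 48.4 and 44.5 FPKM, and *Grin2c* lowest at 0.880 FPKM, a 55-fold range. In 17 members the mean was at least 10 FPKM, in 16 it was between 1 and 10 FPKM and in 1 it was lower. In the order of levels, 29 of the 33 neighbouring pairs overlapped in their ranges over the 6 libraries. These ranges pool both groups and do not compare 2 genes within a library. *Gabbr1* lay above *Gabbr2* in every library, though their ranges overlapped. Whether neighbours differ was not tested. The pairs that did not overlap were *Gabbr2* above *Gabra3*, *Gria4* above *Grin2d*, *Gabrb1* above *Gria3* and *Gabrg3* above *Grik4*. The coefficient of variation within a group had a median of 6.57% in Pen-2 cKO and 9.92% in control libraries and was highest for *Gabra2* in control libraries, at 35.7%.

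**Figure D2:**
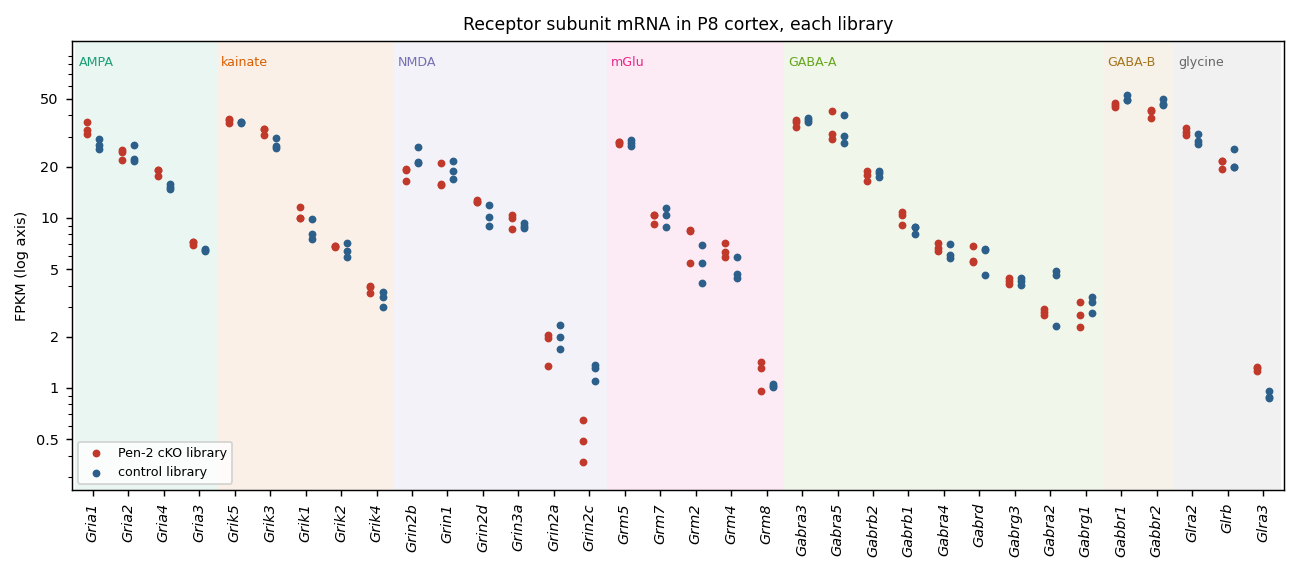
FPKM of each of the 34 tested receptor subunits in every library (log axis), with Pen-2 cKO points left of control points for each gene and genes ordered by mean level within their class. The groups overlap for most subunits, and *Grin2c*, the lowest member, lies at 0.365 to 0.650 FPKM in Pen-2 cKO and 1.10 to 1.36 FPKM in control libraries.

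The 9 members under the filter were *Grin3b*, *Grm6*, *Gabra6*, *Gabre*, *Gabrr1*, *Gabrr2*, *Gabrr3*, *Glra1* and *Glra4*. None reached 0.25 FPKM in any library, and 17 of their 54 library values were 0. Several are best known outside the cortex, such as *Grm6* in retinal bipolar cells, *Gabra6* in cerebellar granule cells and *Glra1* in the spinal cord and brainstem. They were not tested, and no difference could be read at these levels.

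Among the AMPA receptor subunits, *Gria4*, which encodes GluA4, rose. *Gria4* (ENSMUSG00000025892, mm10 chromosome 9, 4417899 to 4796234) was 17.5, 19.1 and 19.0 FPKM in Pen-2 cKO and 15.8, 14.7 and 15.2 FPKM in control libraries. Every Pen-2 cKO library lay above every control library. The means were 18.6 ± 0.889 FPKM in Pen-2 cKO and 15.2 ± 0.544 FPKM in control libraries (SD, n = 3 per group), a log2 difference of 0.28 (SE 0.06, 95% interval 0.14 to 0.43, limma adjusted p = 0.0467), or 1.22-fold. In the cortex GluA4 is known from interneurons and from oligodendrocyte precursors, and the summed markers of both lineages were higher in Pen-2 cKO cortex, as given above, with 2 of 9 inhibitory neuron markers and 8 of 10 oligodendrocyte lineage markers called higher, while *Pdgfra*, the receptor of early precursors, was 12.9 ± 1.13 FPKM in Pen-2 cKO and 10.7 ± 0.266 FPKM in control libraries (adjusted p = 0.102). Their part in the difference was not tested. It did not hold under every setting, and the adjusted p was 0.111 with median-ratio scaling, 0.114 with upper-quartile scaling, 0.0943 without a mean-variance trend, 0.0798 with no filter on low values, 0.113 with the replicate number as a block, and 0.0711 to 0.164 with any 1 library left out.

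*Gria1*, which encodes GluA1 and was the AMPA subunit with the highest level, was 31.3, 32.6 and 36.5 FPKM in Pen-2 cKO and 29.2, 26.9 and 25.3 FPKM in control libraries. The groups did not overlap, but its log2 difference of 0.30 (95% interval 0.11 to 0.49) had an adjusted p of 0.0759. *Gria2*, whose product GluA2 makes AMPA receptors nearly impermeable to calcium once its transcript is edited, was 24.3, 25.1 and 21.8 FPKM in Pen-2 cKO and 26.9, 22.1 and 21.6 FPKM in control libraries. Those values overlapped, with a log2 difference of 0.02 (95% interval -0.21 to 0.25). *Gria3* was the lowest of the 4 and averaged 7.13 ± 0.149 FPKM in Pen-2 cKO and 6.47 ± 0.0676 FPKM in control libraries (log2 difference 0.14, adjusted p = 0.286).

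The summed FPKM of the 4 AMPA genes was 80.1 to 84.5 in Pen-2 cKO and 68.5 to 78.4 in control libraries. These sums overlapped with median-ratio and with upper-quartile scaling. A ratio within a library does not depend on scaling. The log2 ratio of *Gria2* to *Gria1* was -0.36, -0.38 and -0.74 in Pen-2 cKO and -0.12, -0.28 and -0.23 in control libraries, and that of *Gria2* to *Gria4* was 0.47, 0.39 and 0.19 in Pen-2 cKO and 0.76, 0.58 and 0.51 in control libraries. In both ratios, which share *Gria2*, every Pen-2 cKO library lay below every control library, and the mean differences were -0.28 and -0.26. Without Pen-2 cKO replicate 3 they were -0.16 and -0.18. Neither passed: each had an exact two-sided permutation p of 0.1, the smallest that 3 against 3 libraries can give, and 0.35 after Benjamini-Hochberg adjustment over 7 ratios.

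**Figure D3:**
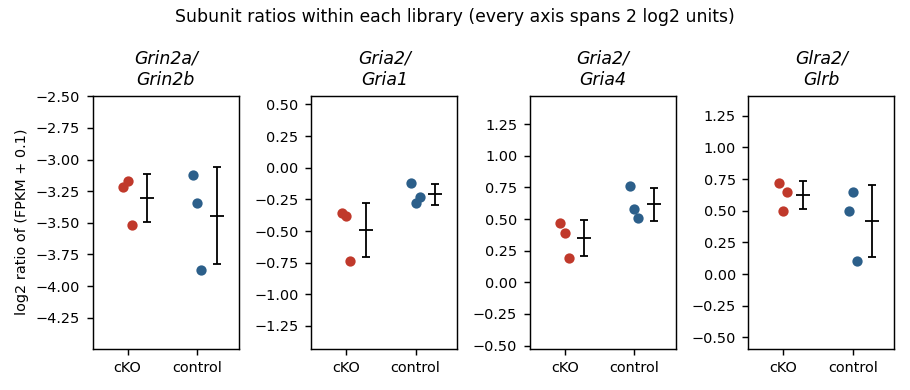
Log2 ratio of 2 subunits (FPKM + 0.1) within each library for 4 pairs, with Pen-2 cKO left of control, points for libraries and bars for mean ± SD. The ratios of *Gria2* to *Gria1* and of *Gria2* to *Gria4* do not overlap between the groups, and the other two do.

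All 5 kainate receptor genes had log2 differences above 0 as deposited, from 0.04 to 0.33, and none passed. The median over all tested genes was itself above 0, at 0.07. With median-ratio or upper-quartile scaling, *Grik5* turned to -0.03 and -0.02. *Grik5*, which encodes the GluK5 subunit that needs a partner to form a channel, was the highest of the class, at 37.5, 36.2 and 38.3 FPKM in Pen-2 cKO and 36.4, 36.4 and 36.3 FPKM in control libraries. Its log2 difference was 0.04, with a 95% interval of -0.07 to 0.15. *Grik3*, which encodes GluK3, was 33.4, 33.2 and 30.9 FPKM in Pen-2 cKO and 25.7, 29.5 and 26.4 FPKM in control libraries. *Grik1*, which encodes GluK1 and is known in the cortex from interneurons, was 9.996, 10.04 and 11.52 FPKM in Pen-2 cKO and 9.79, 7.46 and 7.98 FPKM in control libraries. In both of these genes the groups did not overlap, with log2 differences of 0.26 (adjusted p = 0.0782) and 0.33 (adjusted p = 0.151). *Grik2* and *Grik4* averaged 6.65 and 3.61 FPKM over the 6 libraries and overlapped between the groups. The class summed to 90.2 to 91.6 FPKM in Pen-2 cKO and 79.5 to 83.4 FPKM in control libraries, and the sums did not overlap under any of the 4 other scalings. Sums of other classes also did not overlap as deposited. The NMDA genes summed to 59.5 to 60.8 FPKM in Pen-2 cKO and 62.5 to 68.2 FPKM in control libraries. For the GABA-B genes it was 86.3 to 88.9 FPKM in Pen-2 cKO and 95.1 to 103.0 FPKM in control libraries. With scaling to the pan-neuronal markers the NMDA and the GABA-B sums overlapped. The NMDA sums also overlapped when library sums were made equal, at 60.5 to 62.4 in Pen-2 cKO and 61.1 to 65.7 in control libraries.

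NMDA receptor subunits had differences in both directions. *Grin2c*, which encodes GluN2C, a subunit best known from cerebellar granule cells and in the forebrain also reported in astrocytes, fell. *Grin2c* (ENSMUSG00000020734, mm10 chromosome 11, 115249169 to 115267243) was 0.489, 0.365 and 0.650 FPKM in Pen-2 cKO and 1.10, 1.36 and 1.31 FPKM in control libraries. The highest Pen-2 cKO library lay below the lowest control library. The means were 0.501 ± 0.143 FPKM in Pen-2 cKO and 1.26 ± 0.136 FPKM in control libraries, a log2 difference of -1.20 (SE 0.22, 95% interval -1.71 to -0.69, limma adjusted p = 0.025), or 0.44-fold on the scale of FPKM + 0.1. Taking its longest annotated transcript as the length, these values stand for about 47 to 85 fragments per Pen-2 cKO library and 117 to 160 per control library. It reached 0.5 FPKM in 1 Pen-2 cKO library and 3 control libraries, so it passed the filter through the control group.

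The summed astrocyte markers were lower in Pen-2 cKO cortex as well, with 6 of the 9 called lower and none called higher. Within the groups the order of libraries matched in part, and it was not tested. *Grin2c* and the astrocyte sum were both highest in replicate 3 of Pen-2 cKO. There *Grin2c* was lowest in replicate 2 and the sum in replicate 1. *Slc1a2* was 6.18 FPKM in Pen-2 cKO replicate 1 and 21.1 FPKM in replicate 2. Like *Grin2c*, the markers *Aldh1l1*, *Aldoc*, *Aqp4*, *Gja1*, *Gjb6* and *Slc1a3* were lowest in Pen-2 cKO replicate 2. Lowest in replicate 1 were *Slc1a2*, *Fgfr3* and *Slc7a10*. Among control libraries *Grin2c* and the sum were both lowest in replicate 1, while *Grin2c* was highest in replicate 2 and the sum in replicate 3. None of the 9 markers was at 0 in all libraries: *Aldh1l1* was 2.15 ± 0.801 FPKM in Pen-2 cKO and 12.6 ± 0.517 FPKM in control libraries, and *Slc1a3* was 9.12 ± 3.39 FPKM in Pen-2 cKO and 33.7 ± 0.832 FPKM in control libraries. The part of these markers in the difference of *Grin2c* was not tested. The *Grin2c* call held under each of the 4 other scalings, with log2 differences of -1.26 to -1.08, and with other pseudocounts, where the difference was -1.34 with 0.01 FPKM and -0.59 with 1 FPKM added. It ended with the replicate number as a block (adjusted p = 0.0563) and without control replicate 1, 2 or 3 (0.0665, 0.105 and 0.0587) or Pen-2 cKO replicate 1 or 2 (0.0827 and 0.0733), while the log2 difference lay between -1.28 and -1.03. Without Pen-2 cKO replicate 3 it passed, at -1.37 (adjusted p = 0.016).

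**Figure D4:**
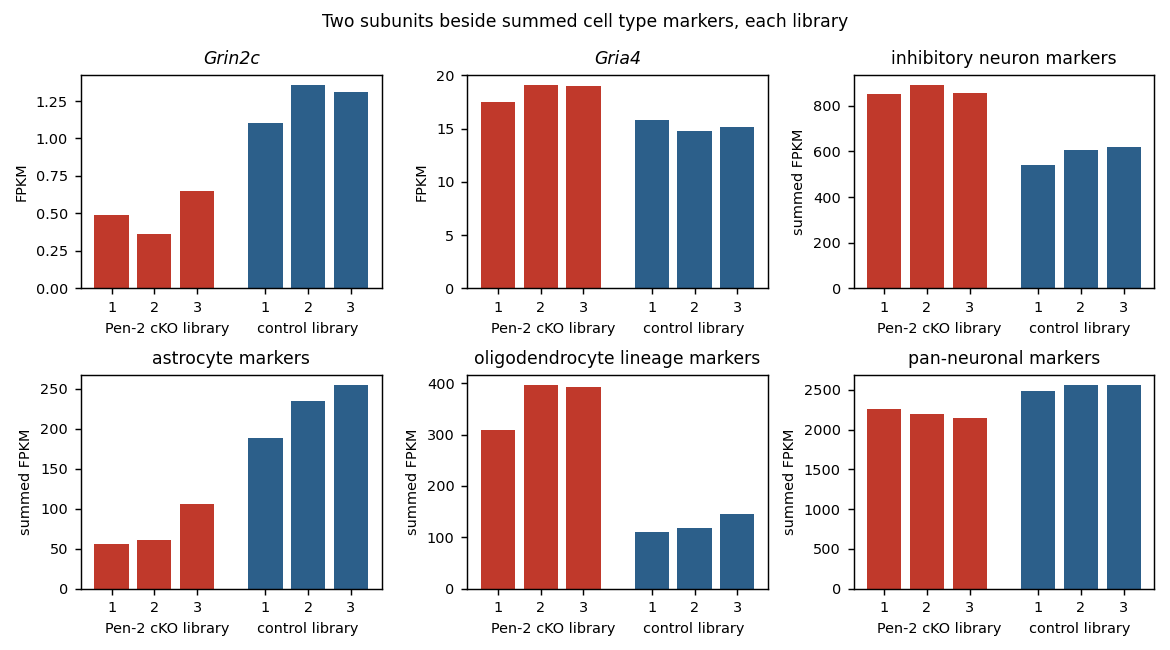
FPKM of *Grin2c* and *Gria4* and summed FPKM of 4 lists of cell type markers in each library, with Pen-2 cKO bars left of control bars and all axes starting at 0. *Grin2c* and the astrocyte sum are lower in all 3 Pen-2 cKO libraries, *Gria4* and the inhibitory neuron and oligodendrocyte lineage sums are higher, and the pan-neuronal sum is lower, with 2 of 9 inhibitory and 1 of 12 pan-neuronal markers called.

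*Grin1*, the obligatory NMDA receptor subunit, was 15.5, 15.8 and 21.0 FPKM in Pen-2 cKO and 16.9, 18.8 and 21.5 FPKM in control libraries, and the groups overlapped. *Grin2b*, which encodes the subunit GluN2B that prevails in the young cortex, was 19.1, 19.4 and 16.5 FPKM in Pen-2 cKO and 21.1, 21.2 and 26.1 FPKM in control libraries. *Grin2d*, known in the cortex from interneurons, was 12.4, 12.8 and 12.3 FPKM in Pen-2 cKO and 11.9, 10.1 and 8.91 FPKM in control libraries. These last genes did not overlap between the groups but did not pass, with log2 differences of -0.31 (adjusted p = 0.137) and 0.29 (adjusted p = 0.166). Of the summed FPKM of the 4 GluN2 genes, *Grin2d* made up 36.5% to 40.0% in Pen-2 cKO and 23.5% to 32.7% in control libraries, and *Grin2b* made up 53.5% to 56.3% in Pen-2 cKO and 57.8% to 68.6% in control libraries. *Grin2a* was low, at 1.79 ± 0.382 FPKM in Pen-2 cKO and 2.01 ± 0.327 FPKM in control libraries, and the log2 ratio of *Grin2a* to *Grin2b* was -3.30 ± 0.18 in Pen-2 cKO and -3.44 ± 0.39 in control libraries, which overlapped (exact permutation p = 0.7, adjusted p = 0.8). *Grin3a*, whose product lowers calcium entry through the receptor, averaged 9.63 ± 0.949 FPKM in Pen-2 cKO and 9.02 ± 0.309 FPKM in control libraries. RNA genes annotated on the opposite strand overlap exons of *Grin1*, *Grin2b*, *Grin2c* and *Grin2d*, as well as *Grm2*, *Grm7* and *Gabra5*. Whether counting used strand is not given in the sources used here, so reads of these overlapping genes cannot be told apart. Small RNA genes on the same strand overlap exons of *Gria2*, *Gria3*, *Gria4*, *Grik4* and *Grm8*, and strand could not separate those.

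Of the 5 tested metabotropic glutamate receptor genes, none passed. *Grm5*, which encodes a receptor coupled to phospholipase C and present on neurons and young astrocytes, was the highest of the class, at 27.4, 28.1 and 27.8 FPKM in Pen-2 cKO and 26.6, 28.6 and 27.5 FPKM in control libraries. Its log2 difference of 0.01 had a 95% interval of -0.11 to 0.13. *Grm4*, a presynaptic receptor that lowers cyclic AMP, was 6.27, 5.91 and 7.09 FPKM in Pen-2 cKO and 4.68, 4.43 and 5.86 FPKM in control libraries. Its groups did not overlap, and its log2 difference was 0.36 (adjusted p = 0.146). *Grm7*, another presynaptic receptor, was 10.4, 10.4 and 9.17 FPKM in Pen-2 cKO and 10.4, 8.86 and 11.4 FPKM in control libraries and overlapped. *Grm2* varied within both groups, at 7.45 ± 1.74 FPKM in Pen-2 cKO and 5.50 ± 1.39 FPKM in control libraries, and *Grm8* averaged 1.23 ± 0.243 FPKM in Pen-2 cKO and 1.04 ± 0.0218 FPKM in control libraries.

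**Figure D5:**
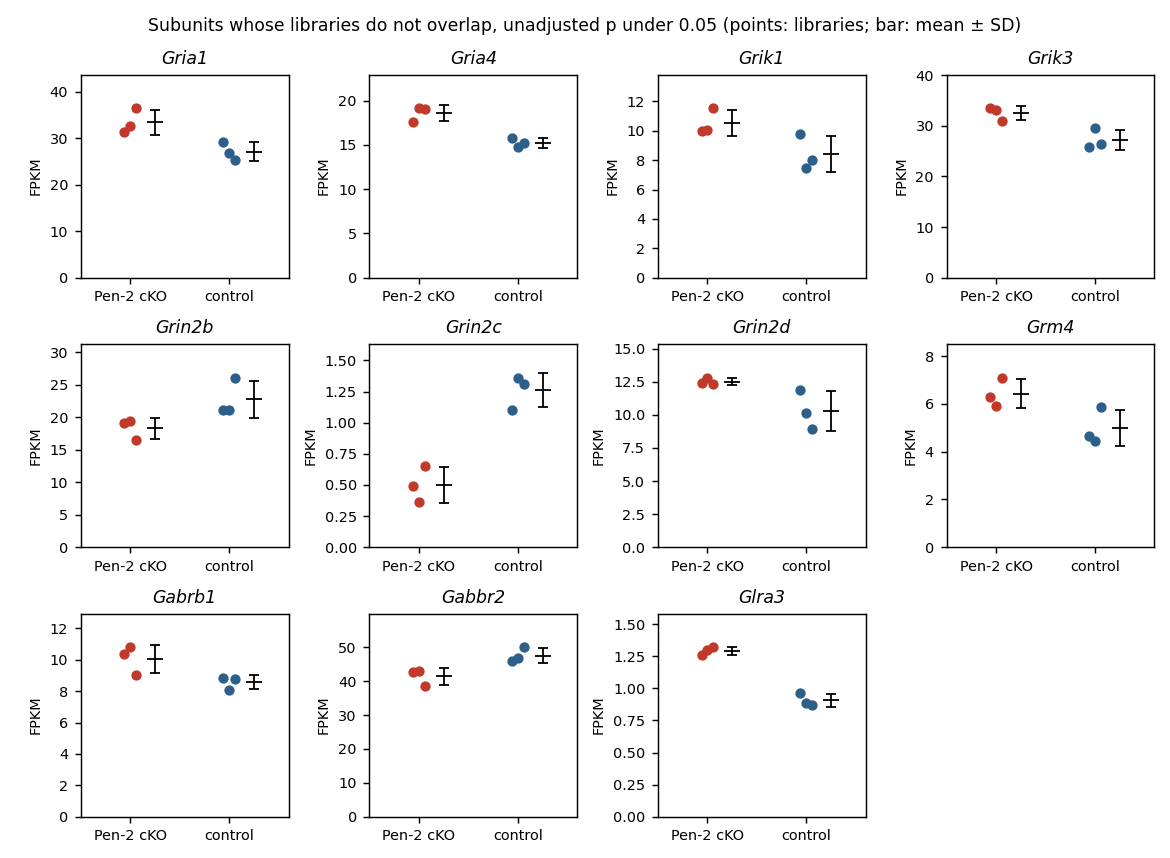
FPKM by library of the 11 subunits whose libraries did not overlap between the groups and whose unadjusted p was under 0.05, with Pen-2 cKO left of control, points for libraries and bars for mean ± SD. *Grin2b*, *Grin2c* and *Gabbr2* are lower in Pen-2 cKO cortex and the other 8 are higher, and only *Gria4* and *Grin2c* pass an adjusted p of 0.05.

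None of the 9 tested GABA-A receptor genes passed, and 5 had log2 differences above 0 and 4 below. Their summed FPKM was 111.9 to 130.5 in Pen-2 cKO and 113.4 to 129.0 in control libraries. The α subunits, which set the receptor's response to GABA and to benzodiazepines, were led by *Gabra3*, at 37.7, 36.8 and 34.0 FPKM in Pen-2 cKO and 36.7, 37.5 and 38.6 FPKM in control libraries. *Gabra5*, whose product is found largely outside synapses, was 31.0, 42.7 and 28.9 FPKM in Pen-2 cKO and 27.7, 30.2 and 40.2 FPKM in control libraries, with 1 high library in each group. Neither gene separated the groups, with log2 differences of -0.06 and 0.06. *Gabra4* averaged 6.70 ± 0.364 FPKM in Pen-2 cKO and 6.31 ± 0.628 FPKM in control libraries.

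*Gabra2* depended on 1 library. It was 2.91, 2.78 and 2.70 FPKM in Pen-2 cKO and 4.85, 4.64 and 2.32 FPKM in control libraries. Control replicate 3 lay below all Pen-2 cKO libraries, and the other control libraries lay above them. The log2 difference was -0.41 (SE 0.26, adjusted p = 0.405), and without control replicate 3 it was -0.74 (SE 0.09, limma adjusted p = 0.0141).

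Of the β subunits, needed for assembly and the GABA site, *Gabrb2* averaged 17.7 ± 1.25 FPKM in Pen-2 cKO and 18.2 ± 0.764 FPKM in control libraries. *Gabrb1* was 10.4, 10.8 and 9.06 FPKM in Pen-2 cKO and 8.85, 8.06 and 8.81 FPKM in control libraries. It did not overlap between the groups but did not pass (log2 difference 0.23, adjusted p = 0.181), and its exons overlap those of *Gabra4* on the opposite strand. Of the γ subunits, *Gabrg1*, which is also known from glia, was 2.72 ± 0.454 FPKM in Pen-2 cKO and 3.11 ± 0.336 FPKM in control libraries, which overlapped. *Gabrg3* averaged 4.28 ± 0.176 FPKM in Pen-2 cKO and 4.23 ± 0.199 FPKM in control libraries, and *Gabrd*, of extrasynaptic receptors, averaged 5.97 ± 0.713 FPKM in Pen-2 cKO and 5.89 ± 1.10 FPKM in control libraries.

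Both GABA-B genes were lower in all Pen-2 cKO libraries than in all control libraries, and neither passed. *Gabbr2* is among the 11 members that also had an unadjusted p under 0.05, and *Gabbr1* is not (limma unadjusted p = 0.0514). At any p, the groups did not overlap in 13 of the 34 tested members. That share was not counted over all tested genes. *Gabbr1*, whose product binds GABA, was 46.3, 44.9 and 47.6 FPKM in Pen-2 cKO and 49.2, 49.2 and 53.0 FPKM in control libraries. *Gabbr2*, whose product couples to the G protein, was 42.6, 43.0 and 38.6 FPKM in Pen-2 cKO and 45.9, 46.7 and 49.9 FPKM in control libraries. Their log2 differences were -0.12 (95% interval -0.25 to 0.00, adjusted p = 0.223) and -0.20 (95% interval -0.34 to -0.05, adjusted p = 0.117). With scaling to the pan-neuronal markers, *Gabbr1* turned to 0.01 and *Gabbr2* was -0.07. Under the other scalings both stayed below 0. They were -0.19 and -0.27 with median-ratio scaling, -0.18 and -0.25 with upper-quartile scaling, and -0.07 and -0.15 with equal sums.

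Of the glycine receptor genes, *Glra2*, the α subunit of embryonic receptors, was the highest, at 32.0, 30.5 and 33.8 FPKM in Pen-2 cKO and 28.2, 31.3 and 27.1 FPKM in control libraries. *Glrb*, which anchors the receptor to gephyrin, was 19.3, 21.5 and 21.6 FPKM in Pen-2 cKO and 19.9, 19.9 and 25.3 FPKM in control libraries. Both overlapped, and so did their log2 ratio, at 0.62 ± 0.11 in Pen-2 cKO and 0.42 ± 0.29 in control libraries (exact permutation p = 0.5, adjusted p = 0.8). *Glra3* was low, at 1.26, 1.30 and 1.32 FPKM in Pen-2 cKO and 0.965, 0.883 and 0.871 FPKM in control libraries. It did not overlap between the groups, with a log2 difference of 0.47 (SE 0.14, 95% interval 0.15 to 0.79, adjusted p = 0.0941), and it passed without a mean-variance trend (adjusted p = 0.0256). With a pseudocount of 1 FPKM the difference was 0.27 (adjusted p = 0.0887).

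Genes for proteins that traffic, anchor or couple these receptors were counted beside the subunits. Their results are given as deposited only, and 5.53% of all tested genes were called. Of 17 AMPA and kainate receptor partners none passed, with a median log2 difference of 0.06. In 5 of the 17 the groups did not overlap. Of these, *Cacng4* and *Shisa6* were higher in Pen-2 cKO cortex, and *Gsg1l*, *Cnih3* and *Neto2* were lower. *Cacng4*, a transmembrane AMPA receptor regulatory protein, was 53.5 ± 3.74 FPKM in Pen-2 cKO and 44.8 ± 2.20 FPKM in control libraries (log2 difference 0.25, adjusted p = 0.0752). *Gsg1l* and *Cnih3*, which encode other AMPA receptor auxiliary proteins, were lower in all Pen-2 cKO libraries, at 17.3 ± 0.680 and 11.3 ± 0.731 FPKM in Pen-2 cKO and 20.5 ± 1.24 and 13.4 ± 0.864 FPKM in control libraries (adjusted p = 0.0855 and 0.136). Of 9 metabotropic receptor partners, *Rgs4*, which speeds the shut-off of G proteins, rose to 48.1 ± 3.47 FPKM in Pen-2 cKO libraries, against 35.2 ± 1.61 FPKM in control libraries (log2 difference 0.45, limma adjusted p = 0.0136), and the list had a median of -0.12. None of 11 GABA and glycine receptor partners passed (median 0.11). In 6 of the 11 the groups did not overlap, and of these 6 only *Lhfpl4* was lower in Pen-2 cKO cortex. The share without overlap at any p was not counted over all tested genes. *Gphn*, which encodes the scaffold gephyrin, was 32.7 ± 0.597 FPKM in Pen-2 cKO and 28.03 ± 1.10 FPKM in control libraries (adjusted p = 0.0549).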

How the data were processed

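RNA-seq values of mouse cortex at postnatal day 8 came from 3 Pen-2 cKO and 3 control libraries, grouped by the sample titles. The values are FPKM as deposited. Per the submitters' processing notes, reads were placed on mm10. Which aligner, counter and annotation were used, and whether strand was, is not given in the sources used here. FPKM in the 6 per-library files and the series table were identical. The deposited group means, p-values and q-values were not used.

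The receptor subunits and the lists of partners and cell type markers were chosen with earlier results of these data known. Of 47 genes that matched by symbol, 4 are not reported here, nor are the ratios that use them. All genes at or above 0.5 FPKM in at least 3 libraries (14147 genes) were fitted together as log2(FPKM + 0.1) with limma 3.58.1 in R 4.3.3 (mean-variance trend, robust variance), Pen-2 cKO minus control, with no covariate. Genes were called at a Benjamini-Hochberg adjusted p under 0.05. A fold change on this scale understates the change of low genes. Values in every library were given for called members, for the 2 highest members of each class and for members whose groups did not overlap at an unadjusted p under 0.05, and ranges or means for the rest; *Gabra2*, and partners and markers named without a call, were chosen after their values were seen. The subunit ratios were compared by an exact two-sided permutation test in SciPy 1.17.1, adjusted over the 7 computed, and other steps used Python 3.11.15, pandas 2.3.3, NumPy 2.4.6 and matplotlib 3.10.9.

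Depth was read from FPKM steps of single-transcript genes, of whose values of up to 50 fragments 93.5% to 94.4% were whole within 0.03. Lengths of other genes are unknown, so a test on whole fragments was not possible for most members. Tested on simulated data of the same 14147 genes, the fit recovered 47% of 1.5-fold, 84.3% of 2-fold and 97.9% of 4-fold changes at an adjusted p under 0.05. It also called 9 unchanged genes. The simulated noise was normal with the variances of the fit, so it met the assumptions of limma. Changes under 1.5-fold, the size of most members' differences, were not simulated. Alternatives were other pseudocounts, filters, scalings, thresholds and variance settings, a replicate block and leaving out each library.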

Additional observations from a re-analysis of the deposited data

How the results depend on the processing

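Of all tested genes, 783 were called as deposited (519 higher and 264 lower in Pen-2 cKO cortex), against 499 with no filter, 1550 with scaling to the pan-neuronal markers, 1519 at an adjusted p under 0.10, 205 at 0.01 and 220 to 842 with 1 library left out. The split was 314 higher and 343 lower with median-ratio scaling, 326 and 307 with upper-quartile scaling. It was 907 and 244 when sums were made equal, and 1384 and 166 with pan-neuronal scaling, which moved the median log2 difference of all genes to 0.195, against 0.066 as deposited. Subunits called higher, 1 as deposited, were 0 with no filter, median-ratio or upper-quartile scaling and a threshold of 0.01, 3 with equal sums (*Gria1*, *Gria4*, *Grik3*), 5 with pan-neuronal scaling (these and *Grm4*, *Gabrb1*), 4 at 0.10 (*Gria1*, *Gria4*, *Grik3*, *Glra3*) and 0 without any 1 library. Subunits called lower, 1 as deposited (*Grin2c*), were 0 at 0.01 and 0 to 1 with 1 library left out. That 1 was *Grin2c* without Pen-2 cKO replicate 3, but *Gabra2* and not *Grin2c* without control replicate 3. Some members changed direction: with median-ratio and upper-quartile scaling *Gria2* was -0.05 and -0.04, *Grik5* -0.03 and -0.02 and *Grm5* -0.06 and -0.04, and with median-ratio scaling *Gabra5* was -0.01. *Grm7* was 0.03 with equal sums and 0.11 with pan-neuronal scaling, under which *Gabra3* was 0.08, *Gabbr1* 0.01 and *Glrb* 0.08. With 1 library left out the range was -0.04 to 0.12 for *Gria2*, -0.02 to 0.04 for *Grm5*, -0.12 to 0.06 for *Grm7*, -0.11 to 0.22 for *Gabra5*, -0.11 to 0.06 for *Glrb* and -0.07 to 0.30 for the log2 ratio of *Grin2a* to *Grin2b*; the smallest exact permutation p is then 0.2. The cause was not tested. The fits with fewer libraries have fewer residual degrees of freedom.

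Same-numbered libraries correlated at 0.06, 0.01 and 0.10 in their deviations from the group means. Pen-2 cKO replicates 1 and 3 correlated best with the control of the same number, and replicate 2 with control replicate 1. All pairs of libraries lay between -0.09 and 0.10, too near 0 to settle whether the numbers pair the samples. No label says that they do, so the block was kept as an alternative. With the replicate number as a block, 456 genes were called, with 0 subunits higher and 0 lower. Depth limits *Grin2c* and the 9 members under the filter most.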
